A study of Mus musculus with 6 samples.

Results

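Liver gene expression was described here for the citrate cycle, for the entry of pyruvate into it, and for the enzymes and carriers that feed it or draw from it, in mice fed casein with or without collagen peptide. The members are 36 genes taken from knowledge of the pathway, with earlier results of these data known. Every probe set annotated to exactly 1 of them was used. Of the 36 genes 35 had a probe set, and Mpc2 had none. They held 80 of the 45037 probe sets tested, on arrays that represent 18193 named genes.

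The citrate cycle is the mitochondrial ring of reactions that oxidises acetyl-CoA to carbon dioxide and passes electrons to the respiratory chain. Pyruvate enters the mitochondrion through the mitochondrial pyruvate carrier and becomes acetyl-CoA through the pyruvate dehydrogenase complex, which kinases switch off and phosphatases switch on. In liver the cycle also supplies carbon for glucose and fatty acid synthesis, and transaminases and glutamate dehydrogenase link it to amino acid breakdown, so its intermediates have to be refilled, which is called anaplerosis.

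The 6 animals were male BALB/cCrSlc mice, an inbred albino strain, 17 weeks old when a piece of liver was taken after 3 h of fasting. All had eaten AIN-93M-based low-protein diets for 10 weeks. In the diet 10C the protein was 10% casein (3 mice), and in 6C+4CP it was 6% casein and 4% collagen peptide from fish (3 mice). Casein was lower and collagen peptide was present in the same group, so these 2 changes cannot be told apart. The 3 mice of a diet were picked from 12 for medium food efficiency, and 1 array was run per mouse. A further group that the design text counts was not analysed here.

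The deposited values are on a logarithmic scale read as log2, although no source used here states the base. Each difference below is the 6C+4CP mean less the 10C mean of these log2 values, with the standard error (SE) from limma's fit to all probe sets. In most probe sets the 6 arrays share practically 1 value. A probe set was said to vary where its 6 values ranged over more than 0.01, as 7791 of all 45037 did (17.3%). Such shared values do not show whether the level differed between mice. The array medians lay between 6.306 and 6.308, and having 3 arrays per diet limits the precision. The array of 10C replicate 3 stood nearer to 6C+4CP replicate 2 (r = 0.985 over the varying probe sets, which are no replicates) than to 10C replicates 1 and 2 (0.971 and 0.973). Of 7 hepatocyte markers 6 were measured, with means from 11.60 to 14.23. Of these 5 varied and 3 lay apart between the diets (Apoa2, Ttr and Apoa1, 1 higher and 2 lower in 6C+4CP), and their list mean ran from 13.31 to 13.52 in 10C and from 13.35 to 13.54 in 6C+4CP. The measured markers of skeletal muscle, adipocytes, pancreatic acinar cells, cholangiocytes, neutrophils and lymphocytes all had means between 5.77 and 6.77, and 0 of them varied. Of 7 Kupffer cell and macrophage markers 5 varied and 0 lay apart between the diets, and their list mean ran from 7.77 to 8.15 in 10C and from 7.62 to 8.04 in 6C+4CP. Stellate markers varied in 3 of 5, and their list mean ran from 8.11 to 8.16 in 10C and from 8.11 to 8.13 in 6C+4CP. Of 2 erythroid markers measured 1 varied, with a list mean from 7.90 to 7.96 in 10C and from 7.95 to 8.02 in 6C+4CP. No marker of either list lay apart, and the 5 sinusoidal endothelial markers did not vary. Periportal hepatocytes were represented by 2 markers, of which Hal lay apart and was lower in 6C+4CP, and of 3 varying pericentral markers 0 lay apart. Each marker gene in these lists was read by its brightest probe set. A less bright probe set of Glul, a pericentral marker, lay apart and was lower in 6C+4CP (-0.13). What part these cell differences have in the values below was not tested, and in a piece of whole liver fewer cells of a type and less RNA per cell cannot be told apart.

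Between the diets 0 of the 80 member probe sets passed limma's test (Benjamini-Hochberg adjusted p under 0.05 over all probe sets), where 0.242% of all probe sets passed. Of the 109 probe sets that passed, 103 did not vary. At an unadjusted p under 0.05 there were 5 of the 80 members and 2890 of the 45037 probe sets. When limma was fitted to varying probe sets alone, 0 members passed and 0% of all 7791 passed, with 1140 of the 7791 (14.6%) at an unadjusted p under 0.05. Among the members 9 of 38 reached that unadjusted level (23.7%), 7 of them lower and 2 higher in 6C+4CP. So no member is reported as changed, and the text gives levels, differences and their spread.

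Of the 80 member probe sets 38 varied (47.5%), all of them in the brightest of 4 equal groups of probe sets. In that group 61 members were found, 62.3% of which varied, against 46.9% of all its probe sets. The varying members stood for 27 genes, and 8 genes had no probe set that varied. The 3 members just outside the limit of 0.01 ranged over at most 2.54e-06 and the 3 just inside over 0.066 to 0.095, so the limit fell in a wide gap.

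Among the 38 varying members, 22 were lower and 16 higher in 6C+4CP. Their median difference was -0.015, beside -0.0040 over all 7791 varying probe sets, and the median size regardless of sign was 0.11 beside 0.082. A size of 0.3 or more was reached by 6 of the 38 (15.8%) and by 15.9% of all varying probe sets. In 7 members all 6C+4CP mice lay below all 10C mice (18.4%, beside 9.11% of all varying probe sets). In 5 they lay above (13.2%, beside 10.8%), and for either direction the background was 19.9%. These 12 probe sets belong to 10 genes: Got1, Pdhb, Fh1, Idh3g, Got2, Sdhb and a probe set of Mdh1 on the lower side, and Idh1, Slc25a10, Dlat and another probe set of Mdh1 on the higher side. The mouse most often at the bottom was 10C replicate 3, with the lowest of the 6 values in 15 of the 38, while 10C replicate 2 held the highest in 10.

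**Figure D1:**
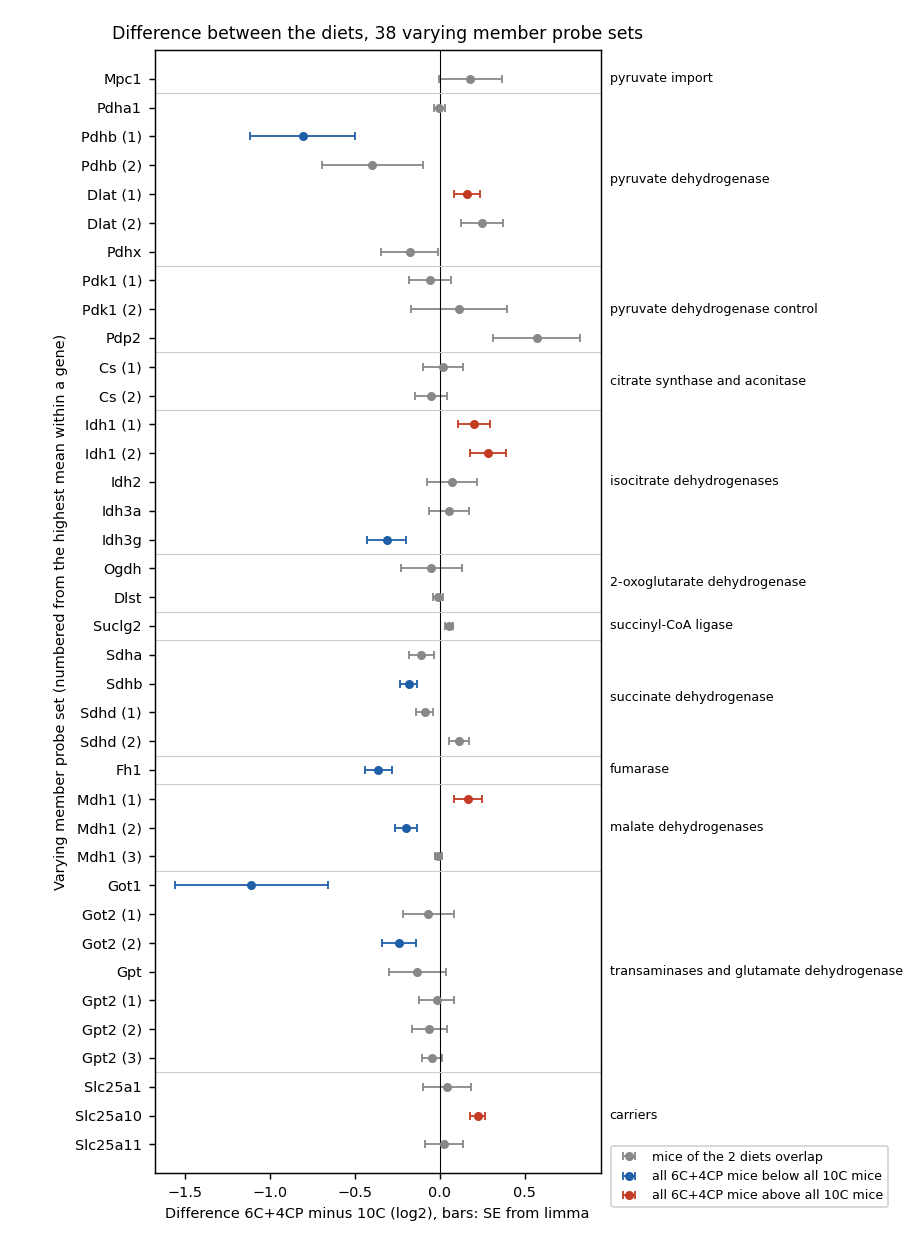
Difference between the diets (6C+4CP minus 10C, log2, horizontal axis) for each of the 38 varying member probe sets, grouped by step of the pathway, with the SE from limma as bars. Got1 (-1.11) and the first probe set of Pdhb (-0.81) lie farthest to the left, Pdp2 (0.57) lies farthest to the right but with overlapping mice, and most others lie within 0.3 of 0.

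**Figure D2:**
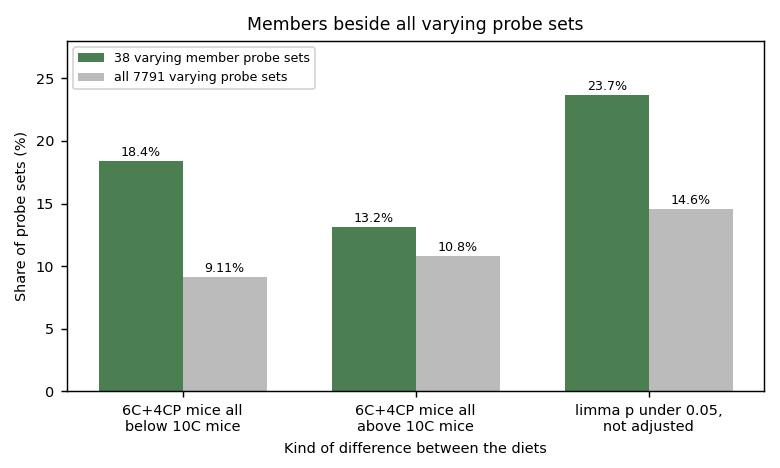
Share of probe sets (percent, from 0) of 3 kinds, for the 38 varying members beside all 7791 varying probe sets. The members' bars read 18.4%, 13.2% and 23.7%, beside 9.11%, 10.8% and 14.6%.

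A difference of at least 0.3 in size without overlap between the diets was found for 4 members, all lower in 6C+4CP: Got1, Pdhb, Fh1 and Idh3g. The share of all varying probe sets that meet both limits was not computed, so this count is not read as a result about the members. The upstream sequences of these 4 members are shown because they had the largest differences among those lying apart. They are the 210 bases before the start of the gene (GRCm38.p6, RefSeq), printed 5′ to 3′ on the gene's strand. The capitals mark letters found on either strand, which are CGCANGCG (known from NRF1, a regulator of mitochondrial genes), AAGATGGC (YY1), TGATGNAA (the C/EBP-ATF element) and CCAAT (NF-Y). CCAAT was added after the sequences had been seen.
Got1, chr19:43524606-43524815, minus strand: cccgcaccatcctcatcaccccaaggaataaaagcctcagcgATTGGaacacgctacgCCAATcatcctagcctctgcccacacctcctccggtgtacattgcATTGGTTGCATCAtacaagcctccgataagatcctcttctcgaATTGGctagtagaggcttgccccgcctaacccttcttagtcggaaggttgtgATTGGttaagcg
Pdhb, chr14:8172993-8173202, minus strand: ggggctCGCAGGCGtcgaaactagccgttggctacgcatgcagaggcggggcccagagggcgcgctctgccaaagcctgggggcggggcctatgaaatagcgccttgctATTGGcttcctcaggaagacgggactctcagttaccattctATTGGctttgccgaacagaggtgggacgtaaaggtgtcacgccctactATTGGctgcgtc
Fh1, chr1:175625636-175625845, minus strand: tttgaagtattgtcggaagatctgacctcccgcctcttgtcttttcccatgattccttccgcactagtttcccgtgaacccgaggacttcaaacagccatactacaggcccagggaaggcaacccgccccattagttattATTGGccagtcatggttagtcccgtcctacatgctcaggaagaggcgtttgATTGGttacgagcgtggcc
Idh3g, chrX:73786898-73787107, minus strand: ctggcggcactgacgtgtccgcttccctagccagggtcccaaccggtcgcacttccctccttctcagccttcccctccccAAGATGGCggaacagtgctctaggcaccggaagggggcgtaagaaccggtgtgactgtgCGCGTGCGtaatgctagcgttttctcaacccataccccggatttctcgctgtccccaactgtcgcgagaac

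The windows searched reached from 250 bases before to 50 after the start, and 33 of the 36 members had at least 1 of them, 42 windows in all. The element TGATGNAA was found in Got1 alone among the members, as TTGCATCA 102 to 95 bases before the start, and in 3.97% of all 32851 windows. CGCANGCG was found in 9 of the 42 member windows (21.4%) and in 8.21% of all windows. The 8 members with it were Glud1, Idh3g, Ogdh, Pdha1, Pdhb, Sdha, Sdhd and Sucla2. Of these, Idh3g and Pdhb had a probe set lying apart, while Ogdh, Pdha1, Sdha and Sdhd overlapped in every varying probe set. Over all members, 10 of the 27 genes with a varying probe set had a probe set lying apart. A link between the letters and the differences was not tested. Glud1 and Sucla2 had shared values in every probe set, so whether they lie apart cannot be seen. AAGATGGC was found in Idh3g alone and in 2.75% of all windows. CCAAT stood at least once in 25 of the 42 member windows (59.5%, beside 37.4% of all). Got1 held it 6 times, 1 of them after the start and 1 directly beside TTGCATCA, and 6 or more were found in 26 of all 32851 windows (0.079%). Pdhb held it 3 times, Fh1 2 times and Idh3g 0 times. Of the other letters searched, TCAAGGTCA (estrogen-related receptors) was found in Sdhd alone and in 0.423% of all windows, CCGGAAGT (ETS factors such as GABPA) in Dlst alone and in 3.89%, and TGACGTCA (CREB and ATF) in Mdh2 and Ogdh and in 1.79%. The median GC content was 61.7% in member windows and 52.7% in all, and a match describes letters, not a bound site.

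The largest difference of a mitochondrial enzyme was that of Pdhb, which was lower in 6C+4CP. Pdhb encodes the beta subunit of the complex's first enzyme, E1. Its brighter probe set read 11.02, 11.52 and 10.50 in 10C and 10.30, 9.98 and 10.33 in 6C+4CP. All 6C+4CP mice lay below all 10C mice, and the nearest pair, 10C replicate 3 and 6C+4CP replicate 3, were 10.50 and 10.33. The difference was -0.81 (SE 0.31), a level 1.75 times lower (adjusted p = 0.704 by limma over all probe sets, 0.278 over varying ones). Within 10C the SD was 0.51, against 0.20 within 6C+4CP. The other probe set of Pdhb read 7.70, 8.39 and 7.44 against 7.38, 7.33 and 7.64. There 6C+4CP replicate 3 lay above 10C replicate 3, and the difference of -0.40 (SE 0.29) shrank to -0.12 without 10C replicate 2, the highest mouse in both probe sets.

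The other subunits had smaller differences, and that of Dlat was positive. Pdha1, the alpha subunit of E1 and Pdhb's partner, had a difference of -0.0033 (SE 0.032) in its varying probe set, with all mice between 7.80 and 7.90. Dlat is the E2 acetyltransferase core. Its probe set with the highest mean read 7.95, 8.01 and 7.86 in 10C and 8.03, 8.05 and 8.23 in 6C+4CP. The diets lay apart by a narrow step, and the difference of 0.16 (SE 0.078, adjusted p = 0.704 by limma) was 0.094 without 6C+4CP replicate 3. That probe set carries the suffix x, which on these arrays marks probes that can match other transcripts. Dlat's other varying probe set differed by 0.25 (SE 0.12) with overlap. Pdhx, which tethers the E3 component to the core, differed by -0.18 (SE 0.17), or by -0.035 without 10C replicate 2, the mouse that was also highest for Pdhb. Mpc1, a subunit of the pyruvate carrier, differed by 0.18 (SE 0.19) with overlap, or by 0.037 without 6C+4CP replicate 3.

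Pdp2, a phosphatase that switches pyruvate dehydrogenase back on, had the largest positive difference of the members. It read 6.98, 6.98 and 7.63 in 10C and 7.51, 8.01 and 7.78 in 6C+4CP. The 10C replicates 1 and 2 were the lowest, while 10C replicate 3 fell inside the range of 6C+4CP. The difference was 0.57 (SE 0.26, adjusted p = 0.704 by limma), and it was 0.79 without 10C replicate 3. Pdk1, a kinase that switches the complex off, gave differences of -0.059 (SE 0.12) and 0.11 (SE 0.28) in its 2 varying probe sets, and Pdk2, the kinase that is broadly expressed, had 1 probe set with shared values.

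**Figure D3:**
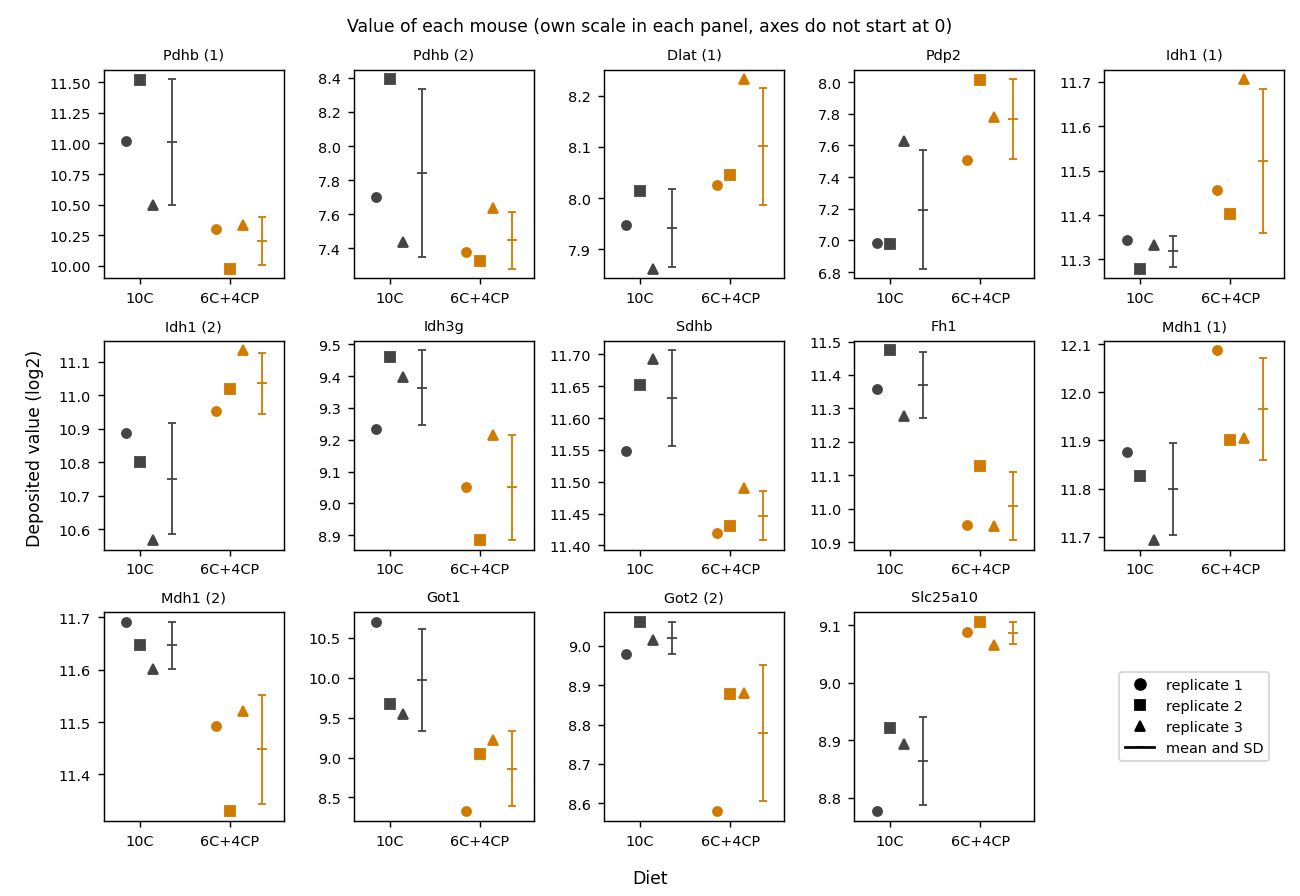
Deposited value (log2, each panel on its own scale) of each of the 6 mice, by diet, for the 14 member probe sets that lay apart between the diets or differed by at least 0.3, with the mean and SD beside the points. The brighter probe set of Pdhb, Got1, Fh1, Idh3g and Sdhb are lower in all 6C+4CP mice, the other probe set of Pdhb overlaps, and Idh1 and Slc25a10 are higher in all of them.

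The first steps of the cycle showed little difference. Cs, citrate synthase, which joins acetyl-CoA to oxaloacetate, gave differences of 0.017 (SE 0.12) and -0.051 (SE 0.095) in its 2 varying probe sets. Aco1, the cytosolic aconitase that also serves as an iron sensor, had shared values in all 3 of its probe sets.

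Among the isocitrate dehydrogenases Idh1 was higher and Idh3g lower in 6C+4CP. Idh1, the cytosolic enzyme that makes NADPH, was higher in both of its probe sets. The brighter read 11.34, 11.28 and 11.33 in 10C and 11.46, 11.40 and 11.71 in 6C+4CP. The 10C mice were close together and all 6C+4CP mice lay above them, with a difference of 0.20 (SE 0.094), or 0.11 without 6C+4CP replicate 3. The other read 10.89, 10.80 and 10.57 against 10.95, 11.02 and 11.13. Again the diets did not overlap, and the difference was 0.28 (SE 0.11, adjusted p = 0.704 by limma over all probe sets and 0.283 over varying ones), a level 1.22 times higher. Both carry the suffix s, which marks probes shared by several transcripts.

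Idh3g, a regulatory subunit of the NAD-dependent enzyme that works in the cycle itself, was lower. Its varying probe set read 9.23, 9.46 and 9.40 in 10C and 9.05, 8.88 and 9.21 in 6C+4CP. The gap between 9.23 and 9.21 was the narrowest of the lower members, and the difference was -0.31 (SE 0.12, adjusted p = 0.704 by limma). Its brighter probe set had shared values. Idh3a, the catalytic subunit, differed by 0.054 (SE 0.12), Idh3b had shared values in 3 probe sets, and Idh2, the mitochondrial NADP enzyme, differed by 0.070 (SE 0.15). The test of a difference between Idh1 and Idh3g was not run.

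In the middle of the cycle the varying probe sets differed by 0.054 at most. Ogdh, the first enzyme of the 2-oxoglutarate dehydrogenase complex, differed by -0.050 (SE 0.18) and Dlst, its succinyltransferase core, by -0.0096 (SE 0.031). Of the succinyl-CoA ligase genes only Suclg2, the GTP-forming beta subunit, had a probe set that varied, with a difference of 0.054 (SE 0.023) and all mice between 8.81 and 8.91. Suclg1, the shared alpha subunit, and Sucla2, the ATP-forming beta subunit, had shared values.

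The next enzymes are succinate dehydrogenase, which is also complex II of the respiratory chain, and fumarase. Sdhb, the iron-sulphur subunit of the complex, read 11.55, 11.65 and 11.69 in 10C and 11.42, 11.43 and 11.49 in 6C+4CP. All 6C+4CP mice lay below all 10C mice, with a difference of -0.18 (SE 0.048), or 1.14 times lower (adjusted p = 0.608 by limma over all probe sets, 0.212 over varying ones). Sdha, the flavoprotein subunit, differed by -0.11 (SE 0.075) with overlap in the only 1 of its 4 probe sets that varied, or by -0.056 without 6C+4CP replicate 2. The 2 varying probe sets of Sdhd, a membrane anchor, pointed opposite ways, with -0.090 (SE 0.048), or -0.052 without 6C+4CP replicate 2, for the brighter and 0.11 (SE 0.060) for the other, which has the suffix x. Sdhc, the other anchor, had shared values.

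Fh1, fumarase, which hydrates fumarate to malate in mitochondria and cytosol, had the smallest adjusted p of any member in the fit to varying probe sets. Its only probe set read 11.36, 11.47 and 11.28 in 10C and 10.95, 11.13 and 10.95 in 6C+4CP. The lowest 10C mouse was above the highest 6C+4CP mouse, 11.28 against 11.13. The difference was -0.36 (SE 0.081), a level 1.29 times lower, with SDs of 0.098 and 0.10 within the diets. By limma the adjusted p was 0.572 over all probe sets and 0.154 over varying ones, and without each mouse in turn the difference ran from -0.42 to -0.31.

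For the malate dehydrogenases the probe sets of a single gene disagreed. Mdh1, the cytosolic enzyme of the malate-aspartate shuttle, had 3 varying probe sets. The one with the highest mean, of suffix x, read 11.88, 11.83 and 11.69 in 10C and 12.09, 11.90 and 11.91 in 6C+4CP, so that all 6C+4CP mice lay above. Its difference was 0.17 (SE 0.081), or 0.11 without 6C+4CP replicate 1. Another read 11.69, 11.65 and 11.60 against 11.49, 11.33 and 11.52. Here all 6C+4CP mice lay below all 10C mice, with a difference of -0.20 (SE 0.064), and the third differed by -0.0099 (SE 0.021). No direction is therefore given for Mdh1, and Mdh2, the mitochondrial enzyme, had shared values in both of its probe sets.

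The transaminases, which pass amino groups between amino acids and 2-oxoacids of the cycle, were lower in every varying probe set, 7 of 7. These probe sets stand for 4 genes, and only 2 of the 7 lay apart between the diets. The share of lower differences over all varying probe sets was not computed. Got1, the cytosolic aspartate aminotransferase, had the largest difference of all members. Its only probe set read 10.70, 9.67 and 9.54 in 10C and 8.32, 9.04 and 9.22 in 6C+4CP. All 6C+4CP mice lay below all 10C mice, 10C replicate 1 being far the highest and 6C+4CP replicate 1 the lowest. The difference was -1.11 (SE 0.45), a level 2.16 times lower, and -0.75 without 10C replicate 1. Its adjusted p was 0.704 by limma over all probe sets and 0.299 over varying ones, with SDs of 0.64 and 0.47 within the diets. A size of 1 or more was found in 130 of the 7791 varying probe sets (1.67%). Got1 is the member with the C/EBP-ATF letters and the 6 CCAAT described above.

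Got2, the mitochondrial aspartate aminotransferase, was lower in the less bright of its varying probe sets, which read 8.98, 9.06 and 9.02 in 10C and 8.58, 8.88 and 8.88 in 6C+4CP. The diets did not overlap, and the difference of -0.24 (SE 0.10) was -0.14 without 6C+4CP replicate 1, the mouse lowest for Got1 as well. Its brighter probe set differed by -0.067 (SE 0.15) with overlap. Gpt and Gpt2, the cytosolic and mitochondrial alanine aminotransferases, overlapped between the diets throughout. Gpt differed by -0.13 (SE 0.17), or by -0.0097 without 10C replicate 3, and the 3 varying probe sets of Gpt2 by -0.020 (SE 0.10), -0.063 (SE 0.10) and -0.048 (SE 0.058). Leaving out 1 mouse took these to 0.073 and -0.00040 (both without 10C replicate 2) for the first and last. For the other it gave -0.013 (without 6C+4CP replicate 1). The sign therefore turned in the first probe set of Gpt2, and it also turned in the brighter probe set of Got2. In Gpt and the other varying probe sets of Gpt2 the sign held, but the difference shrank to the values above. The varying probe set of Gpt and the brightest of Gpt2 carry the suffix s, as does the Gpt2 probe set that differed by -0.063. Glud1, glutamate dehydrogenase, had shared values in both of its probe sets.

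Of the carriers Slc25a10 was higher. This dicarboxylate carrier exchanges malate and succinate for phosphate across the inner mitochondrial membrane. It read 8.78, 8.92 and 8.89 in 10C and 9.09, 9.11 and 9.07 in 6C+4CP. All 6C+4CP mice lay above all 10C mice and close to each other, with an SD of 0.019 against 0.077. The difference was 0.22 (SE 0.045), a level 1.17 times higher, and its adjusted p by limma, 0.510 over all probe sets and 0.158 over varying ones, was the smallest of the varying members in the fit to all. Without each mouse in turn the difference ran from 0.18 to 0.25. The other probe set of Slc25a10 had shared values. Slc25a1, the citrate carrier, differed by 0.042 (SE 0.14) and Slc25a11, the 2-oxoglutarate carrier, by 0.027 (SE 0.11), both with overlap.

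**Figure D4:**
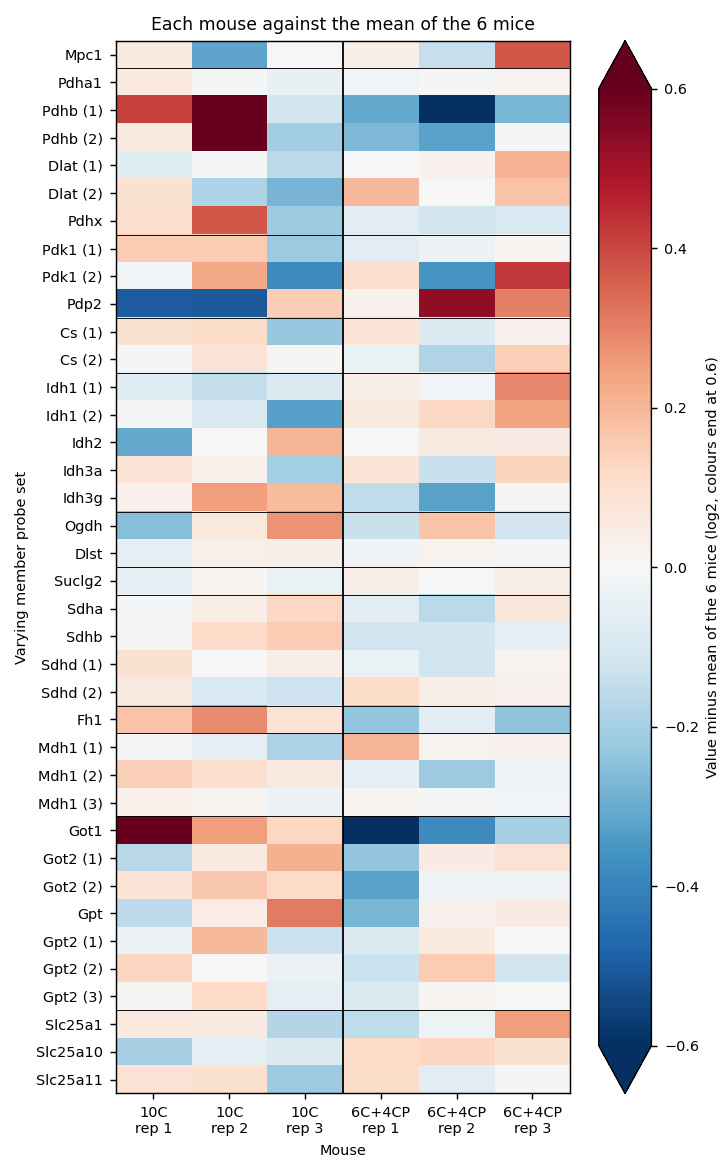
Value of each mouse minus the mean of the 6 mice (log2, colours end at 0.6) for the 38 varying member probe sets, in the order of the pathway, with the diets divided by the vertical line. The 10C column of replicate 3 holds the lowest value in 15 of the 38, and the strongest colours belong to Pdhb, Pdp2 and Got1.

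Another 37 genes of pyruvate, citrate and glutamate use were listed from knowledge of the pathway, again with earlier results known. Of these 32 had a probe set. Limma passed 0 of them in either fit, with 7 of their 28 varying probe sets at an unadjusted p under 0.05 (beside 14.6% of all varying probe sets), 3 of them of the single gene Acly. In 17 genes a probe set varied. Taking the brightest such probe set, all 6C+4CP mice lay above all 10C mice in 4 genes and below in 3, with overlap in 10 (beside 10.8% and 9.11% of all varying probe sets). The widest difference was that of Acly, ATP-citrate lyase, which turns exported citrate into cytosolic acetyl-CoA. It read 11.49, 12.47 and 9.63 in 10C and 8.57, 8.99 and 9.21 in 6C+4CP. All 6C+4CP mice lay below all 10C mice, with a difference of -2.27 (SE 0.84), and the order of the 10C mice, replicate 2 highest and replicate 3 lowest, was that of Pdhb. That probe set has the suffix x. Of the other 4 varying probe sets of Acly another lay apart (-2.23, SE 0.74), and the rest overlapped, with differences of -1.61 (SE 0.70), 0.023 (SE 0.065) and 0.045 (SE 0.18). Me1, the cytosolic malic enzyme, stood the other way, with 10.61, 10.44 and 8.89 against 11.38, 10.73 and 11.69, a difference of 1.29 (SE 0.61), or 0.75 without 10C replicate 3, while its other varying probe set overlapped (0.56, SE 0.60).

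Pdk4, a pyruvate dehydrogenase kinase known to be induced by fasting, split the mice within the diets. It read 5.51, 5.35 and 8.83 in 10C and 5.87, 9.67 and 9.47 in 6C+4CP. The 10C replicate 3 stood with 6C+4CP replicates 2 and 3, and 6C+4CP replicate 1 stood with the other 10C mice, so the difference of 1.77 has an SE of 1.65 and was 1.10 without 6C+4CP replicate 2. Pdp2 placed 10C replicates 1 and 2 lowest in the same way. Pklr, the liver pyruvate kinase, was highest in 10C replicates 1 and 2 (9.95 and 9.91), against 8.33 in 10C replicate 3 and 8.74, 8.13 and 9.05 in 6C+4CP, and differed by -0.76 (SE 0.59) with overlap, or by -1.29 without 10C replicate 3. Slc16a7, a monocarboxylate carrier for pyruvate and lactate, read 8.54, 8.25 and 8.80 in 10C and 8.94, 9.07 and 9.12 in 6C+4CP without overlap, a difference of 0.51 (SE 0.16). Slc16a1, another carrier of that family, read 8.77, 8.53 and 9.03 in 10C and 9.003, 8.97 and 9.66 in 6C+4CP, and differed by 0.43 (SE 0.26) with overlap, or by 0.21 without 6C+4CP replicate 3.

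Of the 4 listed assembly factors of succinate dehydrogenase, Sdhaf1 and Sdhaf3 had shared values, and Sdhaf4 and Sdhaf2 varied. Sdhaf4 read 8.87, 8.92 and 8.57 in 10C and 8.55, 8.56 and 8.53 in 6C+4CP, which differed by -0.24 (SE 0.11). Sdhaf2 read 8.33, 8.26 and 8.23 against 8.14, 8.09 and 8.20, a difference of -0.13 (SE 0.043). In both the diets lay apart by a narrow margin, but the other varying probe set of Sdhaf2 overlapped (-0.051, SE 0.051). Nnt, the transhydrogenase that makes mitochondrial NADPH, read 9.94, 10.23 and 10.28 against 10.52, 10.52 and 10.35, a difference of 0.31 (SE 0.12). Ldha, a lactate dehydrogenase subunit, read 11.79, 11.93 and 11.82 against 11.97, 11.97 and 12.04, a difference of 0.15 (SE 0.049). In these probe sets all 6C+4CP mice lay above all 10C mice, but that of Nnt has the suffix x and is 0.21 without 10C replicate 1, and the other varying one of Nnt overlapped (0.20, SE 0.19). Glul, glutamine synthetase, read 9.95, 9.87 and 9.87 against 9.85, 9.61 and 9.85 in its less bright varying probe set, which lay apart with a difference of -0.13 (SE 0.082), and its brighter one overlapped (-0.068, SE 0.071).

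**Figure D5:**
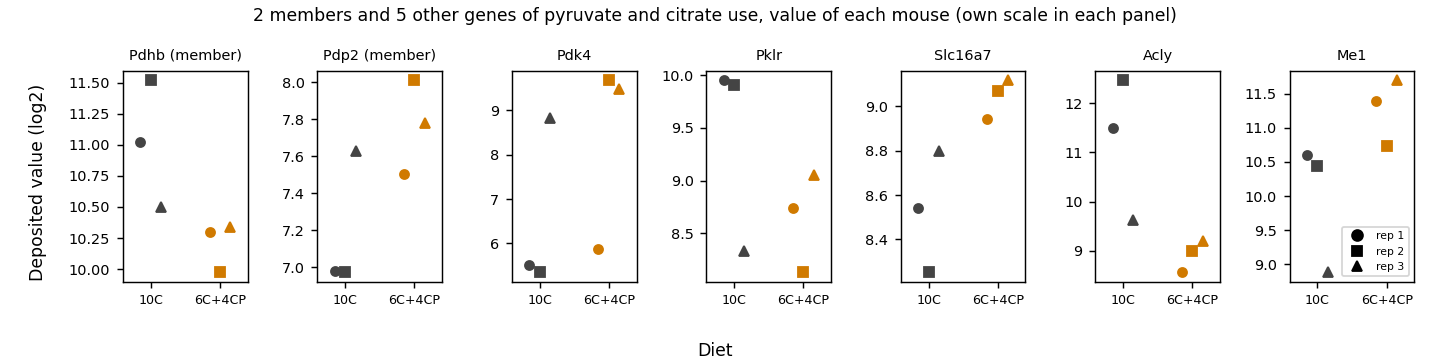
Deposited value (log2, each panel on its own scale) of each mouse by diet for the members Pdhb and Pdp2 and for Pdk4, Pklr, Slc16a7, Acly and Me1. Each replicate number has 1 marker shape and was not taken to pair mice. In Pdk4, 10C replicate 3 (8.83) lies with 6C+4CP replicates 2 and 3 (9.67 and 9.47).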

How the data were processed

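Liver RNA of 6 mice was measured on 1 Affymetrix array per mouse. Labelled RNA was made from 100 ng of total RNA out of tissue stored in RNAlater, per the labels' protocols. The only values used are the authors' deposited values, read as log2. The authors worked in R 2.7.2, per the submitters' processing notes. How probes were background-corrected and summarised, and the log base, is stated in no source used here. No signal over background comes with them.

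Of 45101 rows 64 Affymetrix controls were left out. GEO's platform annotation named 1 gene for 34945 of the remaining 45037 probe sets, several for 932 (not named here) and none for 9160. For all 80 member probe sets the Entrez ID gave the same symbol in the reference table. Files name no build, so gene positions are not given, and promoter windows and their coordinates come from RefSeq (GRCm38.p6).

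The comparison of the diets used limma 3.58.1 (lmFit and eBayes without covariates, R 4.3.3), tested on simulated data, with Benjamini-Hochberg adjustment over all 45037 probe sets. The mice are separate animals per the labels. Members and lists were chosen with earlier results of these data known. Every member is named, and values of all mice are given for varying members and other pathway genes that lay apart, differed by at least 0.3 or had an unadjusted p under 0.01 (further probe sets of Acly, Me1 and Pklr that met this are not listed). The CCAAT letters were chosen after the sequences were seen. Other settings tried were a block for the replicate number, each array left out, quantile normalization, median centring, brighter or varying probe sets alone, an intensity trend with robust estimation, and an adjusted p under 0.1.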

Additional observations from a re-analysis of the deposited data

How the results depend on the processing

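Members called by limma stayed at 0 of 80 under every alternative run. The count over all probe sets, 109, was 114 at an adjusted p under 0.1 and ran from 285 to 398 without each mouse in turn. It was 3 with the replicate number as a block, 1 with quantile normalization and among probe sets ranging over 0.1, and 0 with median centring, for the brighter part, for probe sets ranging over 0.01 and with the trend. Of the 109, 103 do not vary; the cause of these shifts was not tested. Replicate numbers were taken to name mice, not to pair them. Deviations of same-numbered mice from their diet means correlated at 0.48, -0.089 and 0.085 across varying probe sets. Those of differently numbered mice correlated from -0.57 to 0.40. Within a diet the deviations sum to 0, so this cannot decide whether the numbers pair mice. The median difference of the members stayed within 0.041, its SD over mice, of -0.015, from -0.048 to 0.0017. Members lying apart as lower (7) numbered 7 to 12 without each mouse. They reached 12 when 10C replicate 3 was left out and 11 when 6C+4CP replicate 3 was. Those apart as higher (5) numbered 4 to 7 over the alternatives. With 1 probe set per gene, among the 23 genes whose brightest probe set varied, 4 lay apart as lower and 4 as higher. The share over all genes was not computed for that setting. Lying apart is easier to reach with a mouse left out, and the share over all varying probe sets was not computed there. These rises are therefore not read as a result about the members. Of 38 varying members 24 kept their sign throughout, and the 14 that did not had sizes of at most 0.11. Without each mouse they ran from -0.027 to 0.025 (Pdha1), -0.18 to 0.0040 and -0.070 to 0.32 (Pdk1), -0.092 to 0.075 and -0.14 to 0.025 (Cs), -0.067 to 0.19 (Idh2), -0.033 to 0.14 (Idh3a), -0.19 to 0.072 (Ogdh), -0.038 to 0.0057 (Dlst), -0.029 to 0.0037 (Mdh1, the probe set of smallest difference), -0.17 to 0.035 (Got2), -0.089 to 0.073 (Gpt2), -0.073 to 0.13 (Slc25a1) and -0.075 to 0.079 (Slc25a11). The latter Mdh1 value was 0.0012 with quantile normalization. With 3 mice per diet and no signal over background, differences of this size cannot be resolved.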
